A study of Mus musculus with 4 samples.

Results

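The 10 genes described here encode matricellular proteins, which are secreted into the extracellular matrix and act on cells more than they build the matrix. They are Sparc and its relatives Sparcl1, Smoc1 and Smoc2, the thrombospondins Thbs1, Thbs2, Thbs3 and Thbs4, tenascin C (Tnc) and periostin (Postn). They were chosen by symbol, with earlier results of these libraries known, from the 21264 genes of the table. Each symbol was found on 1 row. Their levels are therefore a description, and no test is attached to them.

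RNA was sequenced from 4 mouse libraries of 1 group, N3OE. All 4 come from iPAX3 cells, a line of myogenic progenitors made from pluripotent stem cells, and carry overexpression of NICD3, the active intracellular domain of Notch3. After transplantation, satellite cells of donor origin were isolated again and their RNA was amplified from low input. The labels used here do not state the promoter behind NICD3, the number of clones, the time after transplantation, or the strain, age and number of host animals. The study asked how such cells differ from iPAX3 cells without added NICD3. Cells without added NICD3 are not analysed here, so nothing below is an effect of NICD3. Since the labels do not tie replicates to animals, the spread (SD, n = 4 throughout) may be technical.

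Matricellular proteins bind collagens, growth factors and cell surface receptors, and many of them loosen cell adhesion. In skeletal muscle they are found in the connective tissue, at the junction with tendon and around vessels, and several are made by muscle progenitors during regeneration. Sparc binds collagen, thrombospondins act through Cd47, Cd36 and integrins, and tenascin C and periostin bind integrins.

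Depth was between 12544138 and 13302916 reads. Notch3 stood between 153 and 191 CPM (reads scaled to the summed reads of the table), from the transgene, the endogenous gene or both. Markers of satellite cells were present in every library, with 12 of 12 at 1 CPM or more in each (53.6% of all genes). Pax7 was between 118 and 142 CPM. Marker lists of other cell types were not at 0. Their summed levels were between 1386 and 2822 CPM for 12 myofibre markers, 145 and 435 CPM for 12 endothelial markers, 563 and 1566 CPM for 10 mural markers, and 663 and 1252 CPM for 10 Schwann cell markers. The 12 macrophage markers summed to 29.1 to 190 CPM and the 9 platelet markers to 6.06 to 20.5 CPM. A gene without reads may still have a level of up to 3 counts, 0.226 to 0.239 CPM. In these bulk libraries, fewer cells of a type cannot be told apart from less RNA per cell.

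All 10 matricellular genes reached 1 CPM in all 4 libraries, as did 53.6% of all genes. The median of their mean levels was 91.8 CPM, against 4.83 CPM over all genes. Together they took 0.888% of reads in replicate 1 (95% Wilson interval 0.883 to 0.893), 1.17% in replicate 2 (1.16 to 1.17), 0.697% in replicate 3 (0.692 to 0.701) and 0.741% in replicate 4 (0.736 to 0.746). The intervals cover counting error only. Sparcl1 and Sparc accounted for 84.6 ± 6.49% of those reads. The other 8 genes spanned a wide range, from a mean of 853 CPM for Tnc to 6.41 CPM for Smoc2.

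**Figure D1:**
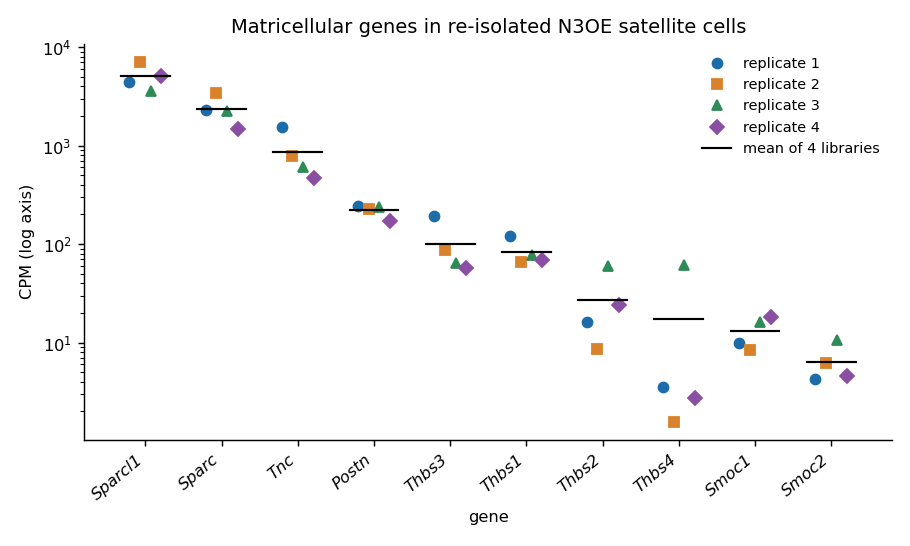
Level of each gene in each library, in CPM on a log axis, with genes ordered by their mean (black bars) and points marking replicates 1 to 4. Sparcl1 and Sparc lie at or above 1473 CPM in every library, while Thbs4 lies below 4 CPM in 3 libraries and at 61.8 CPM in replicate 3.

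Sparcl1 and Sparc, related collagen-binding glycoproteins of which the first is also called hevin, were the most abundant of the 10. Sparcl1 (ENSMUSG00000029309, chromosome 5, 104079111 to 104113733, GENCODE M21) stood at 4444, 7072, 3578 and 5122 CPM in replicates 1 to 4. Its mean of 5054 ± 1486 CPM ranked 9 among all genes of the table. No library was below 3578 CPM, with replicate 2 the highest and replicate 3 the lowest. Sparcl1 is also known from endothelium, whose markers summed to 435, 334, 145 and 169 CPM. Both were lowest in replicate 3, while the markers were highest in replicate 1 and Sparcl1 in replicate 2, and the part of endothelial cells in its level was not tested.

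Sparc (ENSMUSG00000018593, chromosome 11, 55394500 to 55423183) had 2282, 3412, 2257 and 1473 CPM, with a mean of 2356 ± 798 CPM at rank 32. Replicate 2 was again highest, and replicate 4 was lowest. Per kb of exon (RPKM, which allows levels of different genes to be compared), the level of Sparcl1 was above that of Sparc in each of 4 libraries, with a log2 difference of 1.49 ± 0.48. The difference was between 1.03 in replicate 3 and 2.16 in replicate 4. Sparcl1 thus made up 73.3 ± 6.14% of the summed RPKM of the pair, from 67.1% to 81.8%. With the length of the longest transcript in place of all exons, which shortens Sparc more, that share was 64.1%.

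Smoc1 and Smoc2 carry a domain related to Sparc and were near the bottom of the order. Smoc1, an antagonist of BMP signalling in Xenopus (ENSMUSG00000021136, chromosome 12, 81026808 to 81186414), had 9.85, 8.34, 16.2 and 18.3 CPM, from 126, 111, 212 and 229 reads. Replicate 4 was highest and replicate 2 lowest. Smoc2 (ENSMUSG00000023886, chromosome 17, 14279506 to 14404790) had 4.30, 6.24, 10.6 and 4.54 CPM, from 55, 83, 138 and 57 reads, and was highest in replicate 3. At this depth the expected counting error of a single library was 7.68% of the level for Smoc1 and 10.96% for Smoc2, without the noise that amplification adds. The CV between libraries was 36.6% and 45.2%. Per kb of exon Smoc1 exceeded Smoc2 by 2.05 ± 0.71 (log2) in 4 of 4 libraries. Smoc1 held 79.7 ± 7.26% of the pair's summed RPKM, but 69.5% with the longest transcript and 66.9% with no length correction.

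Tenascin C, a large glycoprotein that modulates adhesion and appears in regenerating muscle, came next in abundance. Tnc (ENSMUSG00000028364, chromosome 4, 63959785 to 64047015) had 1562, 777, 606 and 468 CPM, with a mean of 853 ± 489 CPM at rank 113. Replicate 1 stood at 2.53-fold the mean of the other 3, and replicate 4 was lowest. Postn (ENSMUSG00000027750, chromosome 3, 54361109 to 54391037), a protein of fibroblasts and periosteum that binds integrins, had the smallest SD of the 10 before any correction. It had 243, 226, 238 and 172 CPM, a mean of 220 ± 32.7 CPM and an SD of 0.23 on the log2(CPM + 1) scale. After correction for GC content and length that SD was 0.81, among the larger ones of the 10. Replicates 1 to 3 were close to each other, and replicate 4 was lower. Per kb of exon Tnc exceeded Postn by 1.98 ± 0.61 (log2), from 1.51 in replicate 3 to 2.84 in replicate 1.

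The thrombospondins fall into a subgroup that forms trimers, Thbs1 and Thbs2, and a subgroup that forms pentamers, Thbs3 and Thbs4. Thbs1 (ENSMUSG00000040152, chromosome 2, 118111876 to 118127133), which can activate latent TGF-beta, had 120, 65.7, 77.2 and 68.9 CPM. Replicate 1 was at 1.70-fold the mean of the others, which lay close together. Thbs2 (ENSMUSG00000023885, chromosome 17, 14665500 to 14694235), an inhibitor of angiogenesis, had 16.3, 8.64, 60.5 and 23.9 CPM from 209, 115, 791 and 300 reads. It was highest in replicate 3, at 3.71-fold the mean of the others. Its mean was 27.4 ± 23.0 CPM over 4 libraries and 16.3 ± 7.64 CPM (n = 3) without replicate 3.

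Thbs3 (ENSMUSG00000028047, chromosome 3, 89215180 to 89226837) had 194, 87.8, 64.0 and 57.3 CPM, with replicate 1 at 2.78-fold the mean of the others. Of its exon length 6.59% overlaps exons of Mtx1 on the other strand, and Mtx1 stood at a mean of 36.7 CPM. The library kits do not mark strand, so reads from the overlap cannot be assigned to either gene. Thbs4 (ENSMUSG00000021702, chromosome 13, 92751590 to 92794818), a protein of tendon and the muscle-tendon junction, had 3.52, 1.58, 61.8 and 2.71 CPM. These levels rest on 45, 21, 807 and 34 reads. Replicate 3 was at 23.7-fold the mean of the others. The mean of 17.4 ± 29.6 CPM is therefore set by that library, and without it the level was 2.60 ± 0.974 CPM (n = 3).

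The balance among Thbs1 to Thbs4 changed between libraries. Comp, a further thrombospondin gene, was not part of the sums and shares given here. Thbs3 held 63.5%, 59.2%, 24.8% and 43.3% of the summed thrombospondin RPKM in replicates 1 to 4. Thbs1 held 31.1%, 35.2%, 23.8% and 41.3%, and Thbs2 held 3.68%, 4.02%, 16.2% and 12.4%. Thbs4 held 35.2% in replicate 3 and between 1.56% and 3.001% in the other libraries. It was the largest share in replicate 3 and the smallest in each of the others. Its mean share was 10.4 ± 16.6%, and 2.08% without replicate 3. The summed RPKM itself was 63.3, 30.7, 53.4 and 27.5. Replicates 1 and 3 were thus both high in total, replicate 1 through Thbs3 and Thbs1 and replicate 3 with Thbs4 as its largest part.

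**Figure D2:**
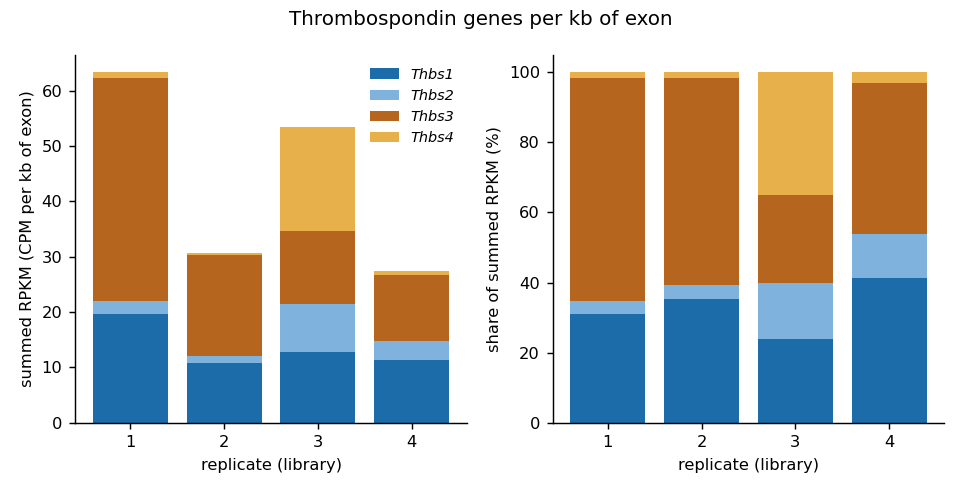
The thrombospondin genes Thbs1 to Thbs4 per kb of exon in each library, as summed RPKM (left) and as shares of that sum in percent (right), with replicates 1 to 4 on the x axes. Thbs3 and Thbs1 make up most of the sum in replicates 1, 2 and 4, and Thbs4 makes up 35.2% in replicate 3.

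Promoter windows of RefSeq (build GRCm38.p6, the assembly of mm10) were at hand for 6 of the 10 genes. Those of Tnc and Thbs3, highest in replicate 1, and of Thbs4 and Thbs2, highest in replicate 3, are shown, 250 bases up to the base before the start site, 5′ to 3′ on the gene's strand. Capitals mark matches, on either strand, to the Rbpj core TGGGAA (Rbpj is the DNA-binding partner of NICD3), the TEAD motif GGAATG and the TATA motif TATAAA. The AP-1 motif TGANTCA was also searched.
Tnc, chr4:64047016-64047265, minus strand: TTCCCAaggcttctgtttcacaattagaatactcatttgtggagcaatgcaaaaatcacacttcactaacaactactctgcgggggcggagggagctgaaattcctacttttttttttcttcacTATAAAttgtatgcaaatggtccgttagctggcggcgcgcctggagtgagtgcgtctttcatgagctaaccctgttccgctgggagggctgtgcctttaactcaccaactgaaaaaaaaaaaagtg
Thbs3, chr3:89214930-89215179, plus strand: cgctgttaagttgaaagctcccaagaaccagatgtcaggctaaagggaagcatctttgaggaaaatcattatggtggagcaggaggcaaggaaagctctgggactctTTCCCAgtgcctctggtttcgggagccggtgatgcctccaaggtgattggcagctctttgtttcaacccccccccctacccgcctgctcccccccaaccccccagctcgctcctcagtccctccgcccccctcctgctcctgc
Thbs4, chr13:92794819-92795068, minus strand: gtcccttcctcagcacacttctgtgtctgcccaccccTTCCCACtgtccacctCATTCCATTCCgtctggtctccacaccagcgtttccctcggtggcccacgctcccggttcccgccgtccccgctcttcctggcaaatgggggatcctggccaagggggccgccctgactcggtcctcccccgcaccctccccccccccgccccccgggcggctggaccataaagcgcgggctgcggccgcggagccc
Thbs2, chr17:14694263-14694512, minus strand: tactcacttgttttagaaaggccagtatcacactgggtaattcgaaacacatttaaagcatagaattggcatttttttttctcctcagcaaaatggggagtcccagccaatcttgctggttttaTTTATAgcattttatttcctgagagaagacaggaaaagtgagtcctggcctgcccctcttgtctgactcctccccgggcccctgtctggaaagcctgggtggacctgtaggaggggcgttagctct

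The Rbpj core was in these windows of Tnc (from position -250, counted from the start site), Thbs3 (-143) and Thbs4 (-213), and in 21.6% of all 32851 windows of that length. No such match was in the windows of Thbs2 and Sparc or in either window of Postn. Postn, which was also highest in replicate 1 but by a small margin, and Sparc are not shown. In Thbs4 the match extends to GTGGGAA on the other strand, which 5.42% of all windows hold, and overlaps the core match. Thbs4 also held overlapping TEAD matches at -197 and -192 (12.6% of all windows). TATA matches were in Tnc and Thbs2, both at -126, and in 1 window of Postn at -26 (12.4% of all windows). No AP-1 match was in the 4 windows shown (6.75%). A further GTGGGAA match in Tnc spans the start site, beginning at -3, and at -82 from a second start site 79 bases downstream that RefSeq also lists. It lies at chr4:64047000-64047029, minus strand, in capitals:
Tnc site: aaaaaaaaaaaGTGGGAAaggatgtctgga
These matches describe the letters of the windows and say nothing of binding.

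Per kb of exon, the order of the 10 genes was Sparcl1, Sparc, Tnc, Postn, Thbs3, Thbs1, Smoc1, Thbs2, Thbs4 and Smoc2. Of the 9 pairs of neighbours in this order, 5 had a difference of the same sign in 4 of 4 libraries. The steps from Sparc to Tnc (2.60 ± 0.70, log2 RPKM) and from Thbs1 to Smoc1 (1.89 ± 0.76) were among them. Thbs3 lay above Thbs1 in every library, but by 0.48 ± 0.49, a mean no larger than its spread. Postn and Thbs3 (0.44 ± 0.68), Smoc1 and Thbs2 (0.23 ± 0.80), Thbs2 and Thbs4 (0.85 ± 1.37) and Thbs4 and Smoc2 (0.96 ± 1.92) did not differ beyond their spread, each with the same sign in 3 of 4 libraries. Smoc1 and Thbs2 changed places with the longest transcript as the length, or without replicate 2.

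The libraries in which the 10 genes were high fell into a few patterns. Of the 9 genes with a mean of at least 10 CPM, Tnc, Thbs1, Thbs3 and Postn were highest in replicate 1, which was the highest library of 26.4% of all genes at that level. Sparc and Sparcl1 were highest in replicate 2 (19.5% of all genes) and Thbs2 and Thbs4 in replicate 3 (23.7%). Smoc1 was highest in replicate 4 (30.4%). Replicate 2 was also the highest library of 11 of 12 macrophage markers (22.3% of all genes with reads). They summed to 190 CPM there and 29.1 to 164 CPM elsewhere. Summed myofibre markers were highest in replicate 2 at 2822 CPM, but nearly as high in replicate 3 at 2661 CPM. Of the 12 myofibre markers, 5 were highest in replicate 2 and 6 in replicate 3 (23.4% of all genes with reads), where Sparcl1 was lowest. The part of macrophages or myofibres in the levels of Sparc and Sparcl1 was not tested. The lowest library was replicate 1 for none of the 9 genes (28.2% of all genes), replicate 2 for Thbs1, Thbs2, Thbs4 and Smoc1 (22.1%), replicate 3 for Sparcl1 (18.4%) and replicate 4 for Sparc, Thbs3, Tnc and Postn (31.3%). Tnc, Thbs3 and Postn were both highest in replicate 1 and lowest in replicate 4, as were 13.7% of all genes. For Postn the highest library was nearly a tie, with 243 CPM in replicate 1 and 238 CPM in replicate 3. Smoc2, below 10 CPM, was highest in replicate 3.

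**Figure D3:**
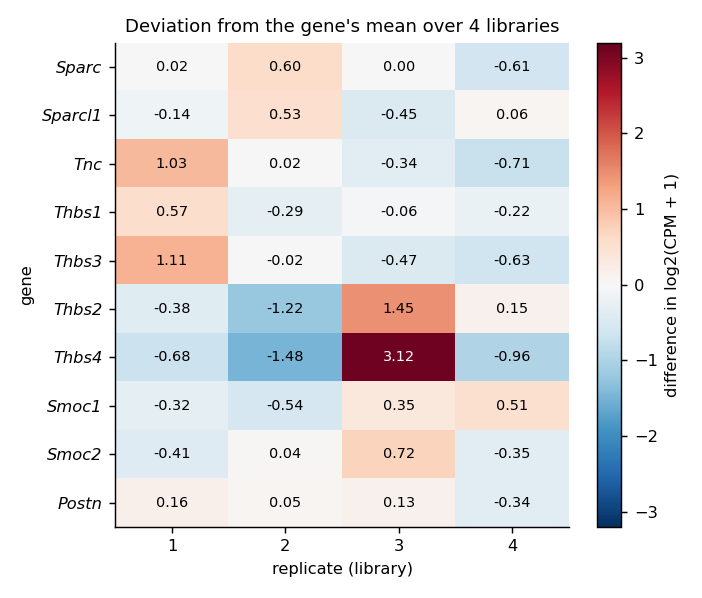
Difference of each library (x axis, replicates 1 to 4) from the gene's mean over the 4 libraries, on the log2(CPM + 1) scale, with genes as rows and the value in each cell. Tnc, Thbs1 and Thbs3 are high in replicate 1, and Thbs2, Thbs4 and Smoc2 are high in replicate 3, where Thbs4 lies 3.12 above its mean.

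Replicate 1, the highest library of Tnc, Thbs1 and Thbs3, also had the highest summed endothelial (435 CPM) and mural (1566 CPM) markers, with 9 of 12 endothelial and 4 of 10 mural markers at their maximum there, as were 25.7% of all genes with reads. The smooth muscle actin gene Acta2 made up most of the mural sum, at 1143 CPM. In the other libraries the genes differed. Tnc (777 CPM) and Thbs3 (87.8 CPM) were next highest in replicate 2, as were endothelial markers at 334 CPM. Thbs1 was lowest there, as were mural markers at 563 CPM. Tnc and Thbs3 were lowest in replicate 4, and endothelial markers in replicate 3 at 145 CPM. Among the defining markers Pecam1 was highest in replicate 1 at 34.7 CPM, whereas the pericyte gene Rgs5 was at 229 CPM there and higher in replicate 4 at 255 CPM. In replicate 1 genes of high GC content were also higher, with a Spearman coefficient of 0.435 between GC content and deviation across 9195 genes of at least 10 CPM, which are not independent, against -0.555 in replicate 4. The longest transcripts of Tnc and Thbs3 hold 52.5% and 54.0% GC. After correction for GC content and length, replicate 1 still exceeded the mean of the others by 1.11 for Tnc (1.37 before), 1.17 for Thbs3 (1.49) and 0.80 for Thbs1 (0.76) on the log2 scale. The part of endothelial or mural cells in these levels was not tested.

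Thbs4, Thbs2 and Smoc2 were highest in the library that was also highest in tendon markers. The 10 tendon markers summed to 32.1, 43.1, 275 and 72.3 CPM in replicates 1 to 4, and 8 of the 9 with reads had their maximum in replicate 3, as had 23.4% of all genes with reads. Fmod, a collagen-binding proteoglycan of tendon, had 163 CPM there and 1.95 to 11.2 CPM elsewhere. Comp, the fifth thrombospondin, had 12.5 CPM in replicate 3 and 0.860 to 3.91 CPM elsewhere. The tendon genes Tnmd and Chad had 10.9 and 18.2 CPM in replicate 3, and Tnmd had no read in the others. Other markers of the list were less tied to replicate 3. Col11a1 had 50.1 CPM there and 49.0 CPM in replicate 4, and Mkx was highest in replicate 2 at 12.4 CPM. The defining factor Scx was at 1.28 to 2.91 CPM in all 4 libraries, and Kera had no read in any. Markers of fibro-adipogenic progenitors were also mostly highest there, 8 of 11, with a sum of 7793 CPM against 4968 to 7043 CPM. The fibrillar collagen gene Col3a1 made up most of that sum, at 5633 CPM. Dpt (1386 CPM) and Col1a1 (657 CPM) came next and were not highest in replicate 3. Of the markers highest there, Pdgfra, Lum, Pi16, Dpp4, Clec3b and Mfap5 were low, with means of 0.768 to 3.15 CPM. The surface marker Pdgfra was at 2.30 CPM in replicate 3 and 0 to 0.399 CPM elsewhere. Replicate 3 was also highest in the summed Schwann cell markers, 1252 CPM against 663 to 1045 CPM. Pmp22 was the largest part of that sum, at 687 CPM, and 5 of the 9 markers with reads were highest there. The summed satellite cell markers were highest there too, 6850 CPM against 5450 to 6269 CPM. Vcam1 was their largest part, at 1983 CPM against 914 to 1594 CPM elsewhere, and 4 of the 12 were highest there. The part of tendon, fibroblast or other cells in the levels of Thbs4, Thbs2 and Smoc2 was not tested.

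**Figure D4:**
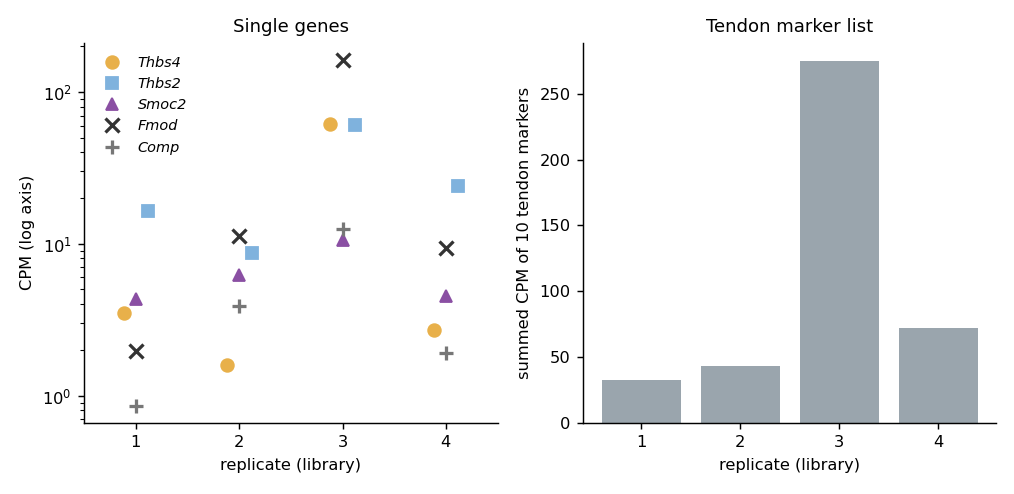
Thbs4, Thbs2 and Smoc2 beside the tendon genes Fmod and Comp in each library, in CPM on a log axis (left), and the summed CPM of the 10 tendon markers (right), with replicates 1 to 4 on the x axes. All 5 genes are highest in replicate 3, where the markers sum to 275 CPM. Thbs4 and Thbs2 points are set slightly apart sideways.

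The spread between libraries separated the 10 genes further. Over all 9202 genes of at least 10 CPM, the median SD of log2(CPM + 1) was 0.62, and it was 0.51 over the 9 matricellular genes at that level. Thbs4 (SD 2.11) and Thbs2 (1.12) had an SD of 1 or more, 2 of 9, as did 2.08% of all genes at that level. Thbs4 reached the minimum of 10 CPM through replicate 3 alone, so a large SD was bound to follow. Both fell below 1 without replicate 3, to 0.41 and 0.69. Thbs3 (0.79) and Tnc (0.75) were above the median, and Smoc1 (0.51), Sparc (0.49), Sparcl1 (0.41), Thbs1 (0.39) and Postn (0.23) were below it. After correction for GC content and length the SD was 0.81 for Postn, 0.70 for Smoc1, 0.62 for Thbs3 and 0.58 for Tnc, so that this order did not hold. Without replicate 1 the SD of Thbs3 and Tnc was 0.31 and 0.36.

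**Figure D5:**
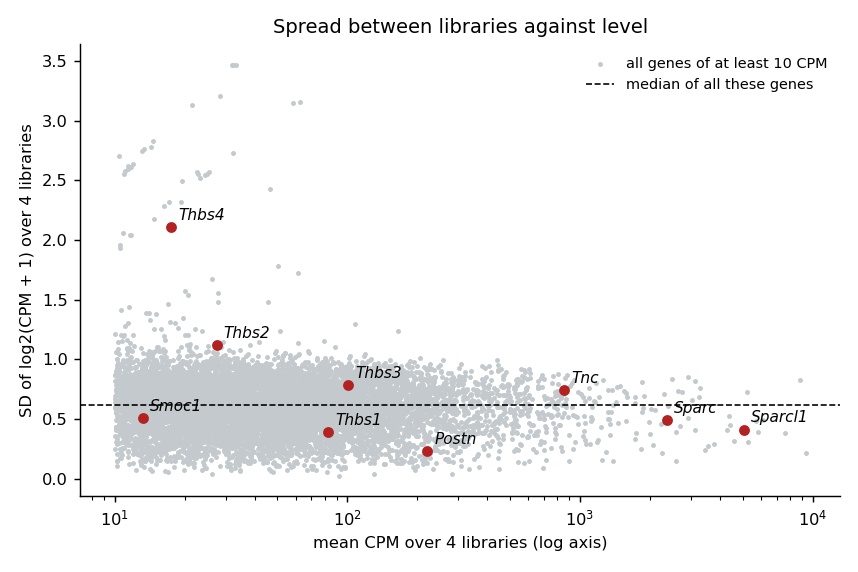
SD of log2(CPM + 1) over 4 libraries against mean CPM on a log axis, for every gene with a mean of at least 10 CPM (grey) and the 9 matricellular genes at that level (red). The dashed line is the median SD of all these genes, 0.62. Thbs4 at 2.11 and Thbs2 at 1.12 lie above most genes of their level.

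For the 3 genes with the largest spread, the genes with the most similar profile were sought among 9201 others by the Euclidean distance between the 4 deviations of log2(CPM + 1). No gene lay within 0.5 of Thbs4. The nearest were Dcn, a collagen-binding proteoglycan, at 1.72, Kcne4, a potassium channel subunit, at 1.93, and Prxl2a, a redox protein, at 1.97. Thbs2 and Fmod were in places 5 and 6. The search covered genes with a mean of at least 10 CPM. Thbs4, Dcn and Fmod reached that mean only through replicate 3, as did Kcne4, which had 5.19 to 6.57 CPM elsewhere. A high replicate 3 in these genes was therefore bound to follow. For Thbs2, 3 genes lay within 0.5, Tlr6, Cert1 and Rnf169, at 0.38, 0.47 and 0.48. Of these, Tlr6 reached 10 CPM only through replicate 3, with 4.13 to 9.25 CPM elsewhere. Around Thbs3 there were 205 such genes, led by Ttc5 (0.09), Map4k4 (0.12) and Slc25a38 (0.12), so its profile is a common one, and its 3 nearest genes were all others after the GC correction. With 4 libraries these distances describe which libraries are high and little more.

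Among 24 other secreted matricellular genes, 14 reached 1 CPM in every library, a share near the 53.6% of all genes, and the median of their means was 7.78 CPM. The most abundant were Ccn1, a cysteine-rich target of Yap signalling (2237 ± 701 CPM), Spp1, osteopontin (1487 ± 931 CPM), Fstl1, which carries a domain related to Sparc (1342 ± 337 CPM), and Igfbp7 (416 ± 134 CPM). Ccn1 and Spp1 were highest in replicate 1, like Tnc, with 3157 and 2865 CPM. The other tenascin genes Tnxb, Tnr and Tnn had means of 2.58, 0.627 and 1.77 CPM, against 853 CPM for Tnc. Tgfbi, the closest relative of Postn, had a mean of 3.29 CPM. Fbln5, named after its values were seen, was lowest in replicate 3 at 9.11 CPM. It was the single gene with an SD of at least 1 among the 11 of this list with a mean of at least 10 CPM. Of all genes at that level, 2.08% had such an SD.

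Of 19 receptor genes, 15 reached 1 CPM in every library, against 53.6% of all genes, with a median of 75.5 CPM. None of the 14 with at least 10 CPM had an SD of 1 or more, which is near the background of 2.08%. Stab1, a receptor of Sparc, was low, with a mean of 3.44 CPM and 0.877 CPM in replicate 4. Sdc1, a syndecan (1231 ± 396 CPM), Itgb1, the integrin beta subunit shared by many receptors (804 ± 347 CPM), Calr, calreticulin (472 ± 193 CPM), and Cd47, a thrombospondin receptor (189 ± 97.7 CPM), were the most abundant. Cd36, which binds Thbs1 and Thbs2, had 117, 53.9, 29.7 and 33.1 CPM and was highest in replicate 1 like Thbs1. Itgav, a subunit of tenascin and periostin receptors, stood at a mean of 119 CPM, its partner Itgb5 at 30.1 CPM and its partner Itgb3 at 1.42 CPM with no read in replicate 4.

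Of 17 genes for collagens and other matrix partners, all reached 1 CPM in every library, as did 53.6% of all genes. The median was 301 CPM. Col3a1, a fibrillar collagen, had 4599 ± 992 CPM, Bgn, biglycan, 2700 ± 765 CPM, Col6a1 2010 ± 886 CPM and Fn1, fibronectin, 1874 ± 753 CPM. Col6a1 and Fn1 were highest in replicate 2, as were Sparc and Sparcl1, whereas Col3a1 was highest in replicate 3 and Bgn in replicate 1. Of the 17 partners, 6 were highest in replicate 2, as were 19.5% of all genes of at least 10 CPM. Dcn and Fmod were the partners with an SD of 1 or more, 2 of 17 against 2.08% of all genes, both highest in replicate 3. Like Thbs4 they reached 10 CPM through that library, with means of 9.16 and 7.52 CPM without it, so the large SD was bound to follow. Of 16 genes of the TGF-beta axis, on which Thbs1 can act, all reached 1 CPM in every library (53.6% of all genes). None had an SD of 1 or more, again near the 2.08% of all genes. The co-receptor Tgfbr3 (473 ± 157 CPM), the corepressor Tgif1 (362 ± 152 CPM) and the ligands Tgfb2 (348 ± 101 CPM) and Tgfb3 (291 ± 119 CPM) led this list.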

How the data were processed

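The deposited values are log2 CPM with a constant offset, 1 column per library, per the file headers and the values. Of the authors' steps, the build mm10 and the tools edgeR, featureCounts, FastQC and Trimmomatic 0.33 appear in the submitters' processing notes, without order or settings. For the aligner, the annotation release and multi-mapping reads, what was done is not given in the sources used here.

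Back on the linear scale, 0.0548 CPM, the offset, was subtracted from each value. All values (100%) were then whole multiples of 1 read (0.0752 to 0.0797 CPM) within 0.001 reads, which gives the depth. The plan left the unit open, and levels are recovered CPM, log2(CPM + 1), on which differences of low genes appear smaller than they are, and RPKM over summed exon length of GENCODE M21 (the mm10 assembly). Of the identifiers 21186 matched (99.6%). No count model was fitted, as there is 1 group. Amplified reads without molecular identifiers are not independent molecules.

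Genes and lists were chosen with earlier results of these data known. The genes named are the 10 genes, the 4 most abundant of each related list, the 3 most abundant and the first-listed marker of each marker list, Notch3, Pax3 and the nearest profiles. Pax3 stood at 45.2 CPM. Other list genes, such as Comp, Cd36 or Tnmd, and Mtx1, were named after their values were seen. A planned comparison of protein sequences was not made. The level of 1 marker gene is not reported here. Reads recovered, the SD call and the profile search were tested on simulated data. Alternatives were scaling by trimmed means of log ratios (TMM, computed in Python and not with the planned R package), pseudocounts of 0.25 and 5 CPM, correction for GC content and length in 20 bins each, other lengths and thresholds, and leaving out each library. The comparison of 1 library with the mean of the others, with its alternatives, and the GC and TMM alternatives for the SD count were added after the values were seen. Python 3.11.15, pandas 2.3.3 and scipy 1.17.1 were used.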

Additional observations from a re-analysis of the deposited data

Results flagged for a closer look

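Among 94 levels, shares and list sums, 3 had 1 library far from the other 3 by Dixon's criterion. The criterion sets the gap to the nearest library over the range against the 95% critical value for 4 samples. Chance gives about 1 in 20, so this count is no more than chance would give. The flagged gene levels were judged on the log2(CPM + 1) scale and the flagged share in percent. On another scale other items can pass the limit. All 3 flagged items concern replicate 3. The share of Thbs4 in the summed RPKM of Thbs1 to Thbs4 was 35.2% there and 1.56% to 3.001% in the others. Kcne4 and Prxl2a, found as genes with a profile like that of Thbs4, had 25.9 CPM (5.19 to 6.57 CPM in the others) and 44.9 CPM (9.92 to 12.1 CPM). They were selected for that profile, so their distance is no separate observation. The level of Thbs4 itself had a gap over range of 0.824 on the log2(CPM + 1) scale, just under the limit, and of 0.968 on the CPM scale, above it.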

How the results depend on the processing

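Most values moved by less than the spread between libraries, and no difference between 1 library and the others changed sign under any alternative run. The number of genes with an SD of 1 or more, 2 as reported, was 0 with a minimum of 50 CPM, 1 with a pseudocount of 5 CPM, and 0 to 2 when a library was left out, with 0 without replicate 3 and 1 without replicate 2. The fewer genes that a minimum of 50 CPM admits account for the first of these, since Thbs2 and Thbs4 lie below it. With the longest transcript as the length, the share of Sparcl1 in its pair was 64.1% and that of Smoc1 69.5%, and the latter was 66.9% with CPM. With a pseudocount of 5 CPM, replicate 3 exceeded the mean of the others by 3.14 for Thbs4 (4.16 as reported) and 0.64 for Smoc2 (0.95), log2 values that a larger pseudocount shrinks for low genes. After correction for GC content and length, Postn in replicate 4 lay at -1.48 relative to the others (-0.45 as reported), and its SD was 0.81 in place of 0.23; the cause was not tested. Of 156 other comparisons with an alternative, 144 were counted as unchanged and 12 as moved. They include SDs and the counts of shared nearest genes given next, which have no spread between libraries of their own. Of the 3 genes nearest to Thbs2, 0 remained with a pseudocount of 5 CPM or after the GC correction. Of those nearest to Thbs3, 0 remained after the GC correction and 3 with a pseudocount of 5 CPM, and of those nearest to Thbs4, 2 and 1. No paired analysis was possible because there is 1 group. Depth limits the genes of few reads, Thbs4 outside replicate 3 and Smoc2.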

Other observations

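Smoc2 and Thbs2 lie 261 kb apart on chromosome 17, with 2 annotated genes between them and no coding gene. Both were highest in replicate 3, at 10.6 and 60.5 CPM, but Thbs2 was lowest in replicate 2 and Smoc2 in replicate 1. Sparcl1 lies 321 kb from Spp1 on chromosome 5, with 4 coding genes between them. Both were abundant, with means of 5054 and 1487 CPM, and they differed in their highest library, replicate 2 for Sparcl1 and replicate 1 for Spp1.

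Postn is the gene of lowest GC content among the 10, 36.3% in its longest transcript, against 48.2% to 54.0% in the others. Genes of low GC content tended to be higher in replicate 4 (Spearman coefficient of -0.555 between GC content and deviation), whereas Postn was lowest there at 172 CPM.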
